A study of Homo sapiens with 12 samples.

Results

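Of 24916 Ensembl gene IDs measured in SW480 ADH cells, 1200 separated Y55F and WT cells from S112A and Mock cells array by array: 581 stood lower and 619 higher in all 6 Y55F and WT arrays than in any of the 6 S112A and Mock arrays. SW480 ADH cells are a human colon carcinoma line, an adherent derivative of SW480. The 12 arrays held 3 each of cells transfected with SPRY2 carrying the Y55F mutation (tyrosine replaced by phenylalanine), cells transfected with wild-type SPRY2 (WT), cells transfected with SPRY2 carrying the S112A mutation (serine replaced by alanine) and Mock-transfected cells. All were cultured for 72 h in the same serum-containing medium. The labels do not say whether a construct was studied in 1 or several transfected populations, or whether the Mock cells carried a vector, so the 3 arrays of a group may share more than their construct.

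SPRY2 encodes Sprouty2, an intracellular protein induced by growth factor signalling that feeds back on the RAS and ERK pathway downstream of receptor tyrosine kinases. The tyrosine changed in Y55F is phosphorylated after receptor activation and docks the ubiquitin ligase CBL, and its loss is known to blunt the inhibition of ERK signalling by Sprouty2. The serine changed in S112A is a target of the kinase MNK1, whose phosphorylation of Sprouty2 is known to protect the protein from degradation. Setting Y55F and WT cells against S112A and Mock cells asks which RNA levels the Y55F mutant shared with the wild type while the S112A mutant did not.

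The separated IDs were chosen by the deposited log2 expression values of all 12 arrays, without a size limit. For each ID the gap was the distance between the nearest arrays of the 2 sides, Y55F and WT on one and S112A and Mock on the other, and an ID was taken where the gap was above 0. These values chose the IDs, so that the differences between the sides, and those of Y55F or WT cells from Mock or S112A cells, are given below as descriptions with no test. The files do not pair the Ensembl IDs with gene symbols, and 0 of the 24916 IDs matched the RefSeq gene table used here. Gene names, sequences, the level of SPRY2 itself and marker genes of SW480 ADH or other cells are therefore not analysed here, and single genes are given as 4 IDs. The arrays were alike as a whole, with medians from 7.2 to 7.32 (log2). The 12 pairs of arrays within a group correlated at 0.995 to 0.998 and the 54 pairs between groups at 0.985 to 0.994. The range of the medians was not small beside the gaps, many of which lay under 0.1. Centring each array on its median kept 458 of the 581 lower and 495 of the 619 higher IDs.

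The share of all IDs that separated was 2.33% for lower and 2.48% for higher, 4.82% in both directions together. In such bulk RNA, a change in every cell and a change in the share of cells with the RNA cannot be told apart. Most separated IDs differed little. The difference between the sides, the mean of the Y55F and WT group means minus that of the S112A and Mock group means, had a median of 1.44-fold among the 581 lower IDs and 1.31-fold among the 619 higher IDs. It was under 1.5-fold for 323 of the lower and 484 of the higher IDs.

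Large differences lay mainly on the lower side. At least a 2-fold difference was found for 111 lower and 24 higher IDs, and at least a 4-fold difference for 26 lower and 4 higher IDs. The largest difference among the lower IDs was 38.2-fold and that among the higher IDs 9.27-fold. Of the 133 IDs that were at least 2-fold lower by their means, 83.5% separated array by array, and of the 45 that were at least 2-fold higher, 53.3%. The IDs left out thus held 22 with a lower and 21 with a higher mean by at least 2-fold, in which at least 1 array of each side overlapped the other side.

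The gap gave the same asymmetry. Among the lower IDs its median was 0.12 and its highest value 4.13 on the log2 scale, and among the higher IDs the median was 0.07 and the highest value 1.26. A gap of at least 1, at which even the nearest arrays of the sides stood 2-fold apart, was found for 37 lower and 3 higher IDs. Under 0.1 lay the gaps of 266 lower and 368 higher IDs, 45.8% and 59.5% of them. The 5 lower IDs just inside the limit had gaps of 0.001 to 0.0027 and differences between the sides of -0.55 to -0.11, while the 5 nearest to it on the outside overlapped by 0.0017 to 0.003, with differences of -0.31 to -0.11. The 5 higher IDs just inside had gaps of 0.0002 to 0.0009 and differences of 0.05 to 0.29, and the 5 just outside differed by 0.11 to 0.40. IDs on both sides of the limit were therefore much alike, and the limit marks no step in the values.

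**Figure D1:**
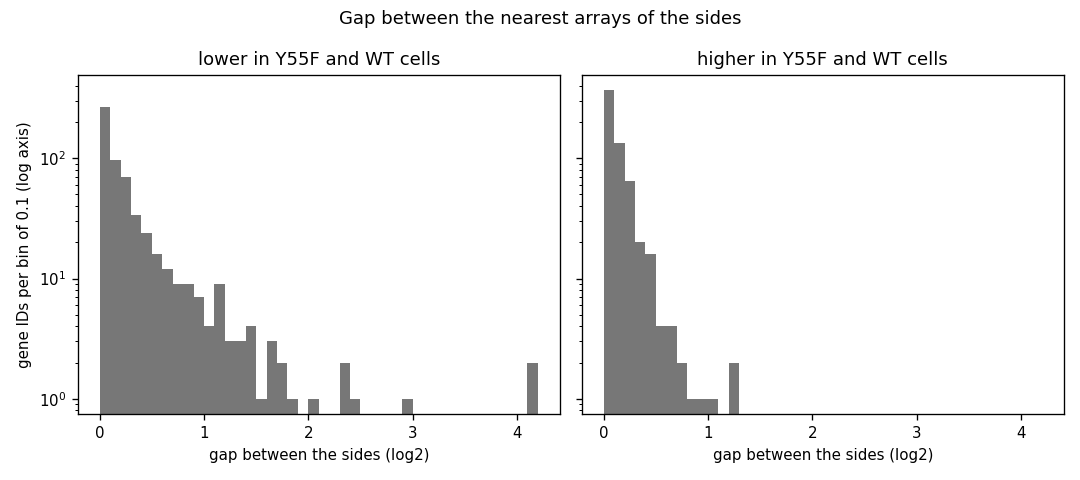
Number of separated gene IDs by their gap, the log2 distance between the nearest arrays of the sides, in bins of 0.1, with a logarithmic vertical axis; the left panel holds the 581 IDs that were lower in Y55F and WT cells and the right panel the 619 that were higher. The left panel reaches 4.13 and the right panel ends at 1.26.

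The ID with the widest gap was ENSG00000104413. Its log2 values were 6.45, 6.72 and 6.31 in the Y55F arrays and 5.71, 6.08 and 6.02 in the WT arrays, against 11.27, 11.46 and 11.43 in the S112A arrays and 10.85, 10.98 and 10.94 in the Mock arrays. The highest Y55F array stood 4.13 below the lowest Mock array, a 17.5-fold distance between the nearest arrays of the sides. Relative to S112A cells the mean level was 29.7-fold lower in Y55F and 43.6-fold lower in WT cells. The groups also did not overlap within a side. In limma's test Y55F exceeded WT by 0.55 (95% interval 0.31 to 0.80, adjusted p = 0.00413), a 1.47-fold difference that is small beside the difference between the sides. S112A exceeded Mock by 0.46 (95% interval 0.22 to 0.71, adjusted p = 0.0167 in limma). With Mock replicate 1 left out this adjusted p was 0.0709, with S112A replicate 2 left out 0.0705 and with S112A replicate 3 left out 0.0502, each above 0.05, and over all alternatives it ran from 5.65e-05 to 0.0709.

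ENSG00000147676 had the second gap, 4.11, and the largest difference between the sides. It stood at 8.68, 8.52 and 8.47 in the Y55F arrays and at 6.05, 7.78 and 6.28 in the WT arrays, against 12.95, 12.91 and 12.90 in the S112A arrays and 12.85, 12.79 and 12.90 in the Mock arrays. WT replicate 2 was well above the other WT arrays, and it still lay below every Y55F array. The S112A arrays lay just above the Mock arrays, and the 6 spanned 0.16 together. Y55F cells were 3.61-fold above WT cells, a log2 difference of 1.85 (95% interval 1.14 to 2.56, adjusted p = 0.00146 in limma). The S112A minus Mock difference was 0.07 (95% interval -0.64 to 0.78, adjusted p = 0.953 in limma). Both intervals use a spread that the 4 groups share, and the SD was 0.94 in the WT arrays and 0.03 to 0.11 in those of the other groups, so the first p may be too small and the second interval too wide.

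The 2 higher IDs with the widest gaps differed little within each side. ENSG00000107984 stood at 10.85, 10.70 and 10.73 in the Y55F arrays and at 10.64, 10.51 and 10.87 in the WT arrays, against 9.15, 9.25 and 9.02 in the S112A arrays and 9.21, 8.82 and 9.09 in the Mock arrays. The gap was 1.26, and on each side the arrays of the 2 groups overlapped. Relative to Mock cells the mean level was 3.29-fold higher in Y55F and 3.10-fold higher in WT cells. Y55F minus WT was 0.09 (95% interval -0.16 to 0.33, adjusted p = 0.726 in limma) and S112A minus Mock 0.10 (95% interval -0.14 to 0.34, adjusted p = 0.733 in limma), with intervals that stay well inside the difference between the sides of 1.63.

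ENSG00000148516 stood at 10.26, 10.27 and 10.18 in the Y55F arrays and at 10.01, 10.07 and 10.02 in the WT arrays, against 8.80, 8.69 and 8.49 in the S112A arrays and 8.57, 8.48 and 8.50 in the Mock arrays. The gap was 1.20, and all 3 Y55F arrays lay above all 3 WT arrays. Relative to Mock cells the level was 3.31-fold higher in Y55F and 2.87-fold higher in WT cells. Y55F minus WT was 0.21 (95% interval 0.05 to 0.36, adjusted p = 0.0635 in limma) and did not pass, although it did under 4 alternatives, and the adjusted p in limma ran from 0.0361 to 0.164 over all of them. S112A minus Mock was 0.15 (95% interval -0.01 to 0.30, adjusted p = 0.252 in limma), which passed with array weights (adjusted p = 0.0188 in limma) and without S112A replicate 3 (adjusted p = 0.0246 in limma), within a range of 0.0188 to 0.655 over all alternatives.

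**Figure D2:**
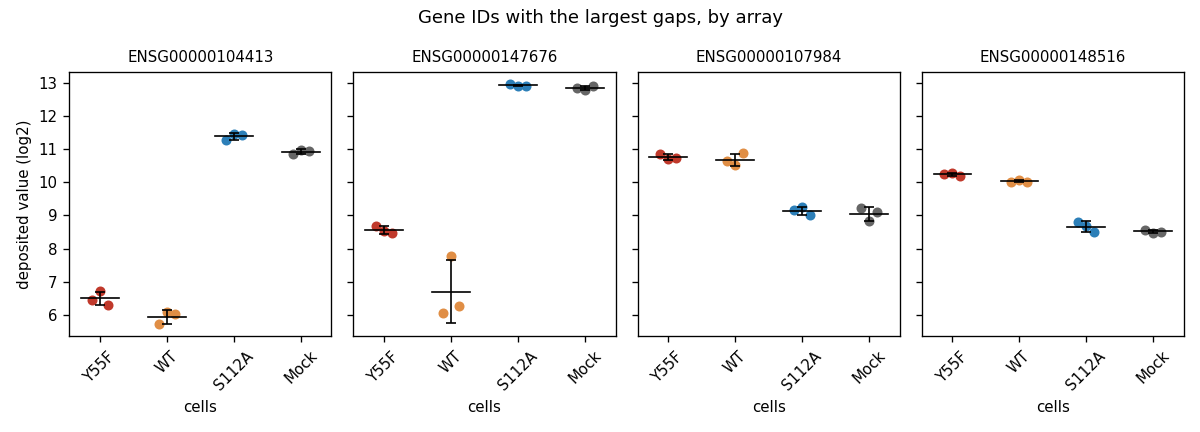
Deposited log2 values of the 2 lower and the 2 higher gene IDs with the widest gaps, by group (Y55F, WT, S112A, Mock); each point is 1 array, the horizontal line is the mean and the bar is 1 SD (n = 3). In both left panels the Y55F and WT arrays lie below 9 and the S112A and Mock arrays above 10, and in both right panels the Y55F and WT arrays lie above all others.

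The 20 lower IDs with the widest gaps had gaps of 1.31 to 4.13 and differences between the sides of 3.18-fold to 38.2-fold. Their group means ran from 5.41 to 10.84 in Y55F and from 5.5 to 10.04 in WT cells, against 7.87 to 12.92 in S112A and 7.61 to 12.85 in Mock cells. Y55F was higher than WT for 10 of them, lower for 1, and did not pass limma's test for 9. S112A was higher than Mock for 7, lower for 1, and did not pass for 12. The 20 higher IDs with the widest gaps had gaps of 0.45 to 1.26 and differences of 1.53-fold to 9.27-fold. Y55F was higher than WT for 4 of these, lower for 2, and did not pass for 14. S112A was lower than Mock for 11, higher for 0, and did not pass for 9. Over all IDs, Y55F was higher than WT at 8.79% and lower at 10.4% (adjusted p under 0.05 in limma). S112A was higher than Mock at 5.88% and lower at 7.12%. The gap that ranked these IDs uses the same values, so nothing is read from these counts.

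Few separated IDs lay at the low end of the scale. The third of all IDs with the lowest mean, at or below 5.97 on the log2 scale, held 4.65% of the lower and 6.14% of the higher IDs, and the third with the highest mean, above 8.74, held 50.8% and 62.0%. The lower IDs had a median level of 8.50 in Y55F and 8.35 in WT cells, against 9.24 in S112A and 9.17 in Mock cells. For the 26 lower IDs with at least a 4-fold difference these medians were 7.34 in Y55F and 6.76 in WT cells, against 10.07 in S112A and 9.69 in Mock cells. The median of all IDs was 7.23 in Y55F, 7.28 in WT, 7.24 in S112A and 7.27 in Mock cells, so the strongest lower IDs stood near or below the middle of the scale in Y55F and WT cells. Signal over background was not analysed, and a fold against such a level may understate the change. The higher IDs had medians of 9.65 in Y55F and 9.62 in WT cells, against 9.03 in S112A and 9.19 in Mock cells.

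**Figure D3:**
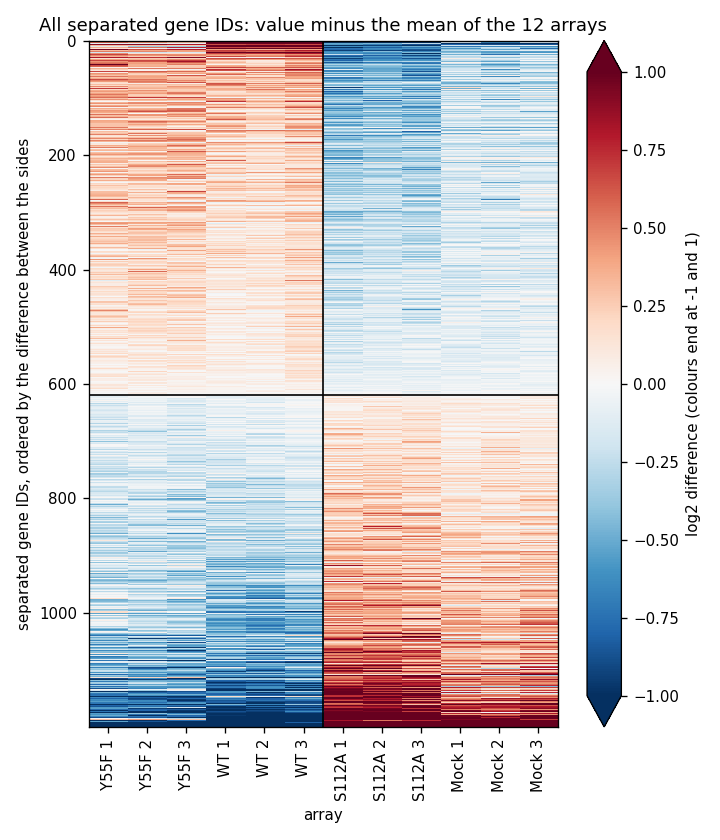
Log2 value of each of the 1200 separated gene IDs in each of the 12 arrays minus its mean over the 12, with gene IDs ordered by the difference between the sides and colours ending at -1 and 1; the upper block holds the 619 higher and the lower block the 581 lower IDs. The change of sign at the vertical line is set by the choice of IDs. The S112A columns are more strongly coloured than the Mock columns in both blocks, which the choice of IDs can also favour.

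The differences within each side were tested with limma across all 24916 IDs. The choice of IDs used the same arrays. It treats Y55F like WT and S112A like Mock, and it limits the spread of the arrays and the size of differences towards the other side. Exchanging S112A with Mock, or Y55F with WT, leaves every gap unchanged. Yet an S112A level towards Y55F and WT narrows the gap and can remove an ID, while one beyond Mock does not. With Mock as the starting level, the choice therefore favours IDs with S112A beyond Mock. The first question was whether S112A cells stood at the Mock level. S112A differed from Mock at 353 of the 1200 separated IDs, 29.4%, and at 13% of all IDs (adjusted p under 0.05). The separated IDs differ from all IDs in level and spread through their choice, dim IDs being rare among them, so nothing is read from a share of calls above that of all IDs, here or for Y55F and WT.

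The direction of these differences was uneven. Among the 581 lower IDs, S112A was higher than Mock, farther from Y55F and WT, at 140 IDs or 24.1%, and lower than Mock at 30 or 5.16%. Over all 24916 IDs, 5.88% were higher and 7.12% lower in S112A than in Mock cells. Among the 619 higher IDs, S112A was lower than Mock, again farther from Y55F and WT, at 166 IDs or 26.8%, and higher at 17 or 2.75%. Among the separated IDs past the test, S112A thus lay beyond Mock at 306 and between Mock and the other side at 47. The choice of IDs can itself produce such an imbalance. Nothing about S112A is therefore read from it, or from the counts of both directions given below.

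Calls of at least 1.5-fold between S112A and Mock numbered 53 away from Y55F and WT and 8 towards them among the lower IDs (9.12% and 1.38%), and 24 away and 3 towards among the higher IDs (3.88% and 0.485%). Over all IDs 1.46% were higher and 1.53% lower in S112A by that much. The largest was an 11.4-fold difference of a lower ID, which stood at 6.28, 6.35 and 6.49 in Y55F and 6.37, 6.51 and 6.48 in WT arrays, against 10.32, 10.42 and 10.77 in S112A and 7.2, 6.91 and 6.87 in Mock arrays. Its Mock arrays lay only 0.36 above the nearest WT or Y55F array, so that the difference between the sides came mainly from the S112A cells. Towards the other side the largest was 2.01-fold, in a lower ID that stood at 7.42, 7.32 and 7.99 in Y55F and 7.35, 7.65 and 7.58 in WT arrays, against 9.58, 9.29 and 9.5 in S112A and 10.31, 10.58 and 10.52 in Mock arrays. S112A cells there kept a level between those of Mock and of both other groups.

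The order of the group means was also counted, whether or not a test passed. The mean of S112A lay beyond that of Mock, away from Y55F and WT, at 400 of the 581 lower IDs (216 with WT and 184 with Y55F at the far end) and at 452 of the 619 higher IDs (252 with Y55F and 200 with WT at the far end). The nearer edge of the S112A and Mock side was accordingly a Mock array at 63.5% of the lower and 66.4% of the higher IDs. Over all IDs the median S112A minus Mock difference was -0.01, and the share with each sign was not counted. The choice of IDs can favour this order and this edge, so both are given as descriptions. With array weights S112A and Mock differed at 667 of the separated IDs and at 36.6% of all IDs (18.7% higher and 17.9% lower in S112A), with 254 higher and 75 lower in S112A among the lower IDs and 71 higher and 267 lower among the higher IDs. The count of 17 was 11 without Mock replicate 1 or Mock replicate 2, 9 without S112A replicate 2 and 11 where S112A and Mock were fitted alone.

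The second question was whether Y55F cells reached the WT level. Y55F differed from WT at 354 of the 1200 separated IDs, 29.5%, and at 19.2% of all IDs. Among the 581 lower IDs, Y55F was higher than WT, that is nearer to Mock and S112A, at 138 IDs or 23.8%, and lower at 69 or 11.9%, against 8.79% higher and 10.4% lower over all IDs. Among the 619 higher IDs, Y55F was higher than WT, that is farther from Mock and S112A, at 90 IDs or 14.5%, and lower at 57 or 9.21%.

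These counts moved with the scaling. With each array centred on its median, Y55F was higher than WT at 153 and lower at 45 of the lower IDs, so that 77.3% of its calls were higher, and 66.7% without centring, and it was higher at 138 and lower at 48 of the higher IDs, where 74.2% were higher, and 61.2% without centring. Over all IDs 11.8% were then higher and 7.69% lower in Y55F than in WT cells. The count of 69 was 44 without WT replicate 3 or without Y55F replicate 3.

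The counts were uneven between sizes of difference, which was not tested. Among the 26 lower IDs with at least a 4-fold difference, Y55F was above WT at 15, below at 2 and not past the test at 9, with a median Y55F minus WT of 0.52. Among the 24 higher IDs with at least a 2-fold difference, Y55F was below WT at 12, above at 4 and not past the test at 8. Among the 484 higher IDs under 1.5-fold, Y55F was above WT at 61 and below at 24. Over all IDs, Y55F was above WT at 8.79% and below at 10.4%. The sizes are cut on a difference that holds the Y55F and WT values, so no trend with size is read from these counts. The median difference from Mock of the lower IDs with at least a 4-fold difference corresponded to 4.03-fold lower in Y55F and 5.95-fold lower in WT cells. For the higher IDs with at least a 2-fold difference it corresponded to 1.82-fold higher in Y55F and 2.24-fold higher in WT cells. These comparisons share the Mock arrays, and their medians are set side by side as descriptions.

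Single IDs showed how far the Y55F and WT levels could part and still separate from the others. The largest difference in a lower ID was 8.38-fold (adjusted p = 2.99e-09 in limma). That ID stood at 10.97, 11.08 and 10.97 in Y55F and 8.03, 8.09 and 7.70 in WT arrays, against 12.13, 12.23 and 12.22 in S112A and 11.59, 11.66 and 11.36 in Mock arrays. Y55F lay just below Mock there, with a gap of 0.27. The largest in a higher ID was 8.0-fold (adjusted p = 1.56e-09 in limma), at 8.14, 7.89 and 7.77 in Y55F and 10.94, 10.96 and 10.89 in WT arrays, against 6.41, 6.31 and 6.14 in S112A and 7.74, 7.69 and 7.73 in Mock arrays. The gap was 0.03, and the 4 groups stood at 4 separate levels.

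The opposite also occurred, with Y55F farther from Mock than WT. In a lower ID the Y55F arrays stood at 6.57, 6.56 and 6.82 and the WT arrays at 8.48, 8.28 and 8.66, a 3.53-fold difference (adjusted p = 1.83e-07 in limma), against 9.01, 9.25 and 9.24 in S112A and 10.13, 9.98 and 10.06 in Mock arrays. By at least 1.5-fold, Y55F was nearer to Mock than WT at 44 and farther at 12 of the lower IDs, and nearer at 15 and farther at 8 of the higher IDs. Over all IDs 1.97% were higher and 2.66% lower in Y55F than in WT cells by that much.

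**Figure D4:**
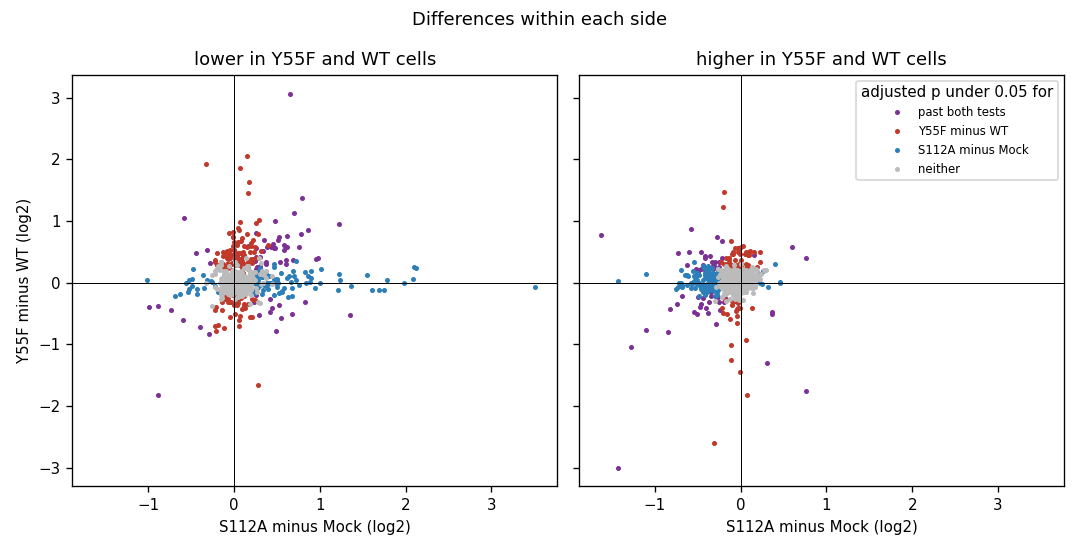
Y55F minus WT (vertical) against S112A minus Mock (horizontal), both log2, for each separated gene ID, in the left panel for the 581 lower and in the right panel for the 619 higher IDs; colours mark which of the 2 tests had an adjusted p under 0.05 in limma. Blue and purple points right of 0 in the left panel and left of 0 in the right panel are those whose S112A level lay beyond Mock.

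Neither test passed at 615 of the 1200 separated IDs, 51.2%, with 268 lower and 347 higher IDs, while neither passed at 74.6% of all IDs. A p above the threshold does not show equal levels, so the 95% intervals were set against a 1.5-fold limit. The interval of Y55F minus WT lay within 1.5-fold in either direction at 1016 of the separated IDs, 84.7%, and at 87.8% of all IDs. That of S112A minus Mock did so at 1013, 84.4%, and at 91.3% of all IDs. The limit exceeds the difference between the sides at 323 lower and 484 higher IDs, so an interval within it shows no shared level there. Those IDs held 307 and 464 of the Y55F minus WT intervals within the limit, and 305 and 466 of the S112A minus Mock ones. The choice of IDs also limits their spread, so these shares are given as descriptions. Of the 111 lower IDs with at least a 2-fold difference between the sides, 60 had a Y55F minus WT interval and 53 an S112A minus Mock interval within that limit, and 27 passed neither test. Of the 24 such higher IDs, 10 and 11 did, and 3 passed neither test.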

How the data were processed

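RNA of 12 SW480 ADH samples was hybridised to Affymetrix arrays. The authors deposited 1 log2 value for each Ensembl ID on each array. Per the submitters' processing notes RMA and affy were used, with versions, array model and annotation not given in the sources used here. Such values are relative within an array. Groups and replicate numbers came from the sample titles. The design text mentions independent experiments run in triplicate and does not assign arrays to them, so p-values measure the spread between arrays, which may be technical. All 24916 IDs were used without a filter. The gap rule was applied to the values of all 12 arrays. Y55F minus WT and S112A minus Mock were tested with limma (version 3.58.1, run under R 4.3.3), fitting 1 mean per group over the 12 arrays (8 residual degrees of freedom), with Benjamini-Hochberg adjustment over all IDs and a threshold of 0.05. The procedure was tested on simulated data. The members and lists were chosen with earlier results of these data known, and the interval limit after seeing the data. Single IDs are the 2 with the widest gap in each direction, and extremes are given without an ID. Planned gene lists, cell type markers, promoter motifs and chromosomes need gene symbols and were not run. Alternatives were other scalings, a filter on low means, minimum sizes, array weights, the replicate block, the compared groups alone and leaving out each array.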

Additional observations from a re-analysis of the deposited data

How the results depend on the processing

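A minimum size can only lower a count: 258 lower and 135 higher IDs remained with a difference between the sides of at least 1.5-fold, and 120 and 25 with the nearest group means at least 1.5-fold apart. Centring each array on its median gave 503 lower and 627 higher IDs, of which 458 and 495 were among those reported. Quantile normalizing again gave 642 and 563, of which 531 and 501 were. Leaving out 1 array, which can only add IDs, gave 600 to 707 lower and 650 to 753 higher IDs. The IDs that differed between Y55F and WT numbered 285 to 341, and those between S112A and Mock 275 to 325, without 1 array of the groups compared. Array weights gave 667 for S112A and Mock, with weights of 5.31 for Mock replicate 1 and 6.06 for S112A replicate 2, and the cause was not tested. The S112A minus Mock difference of ENSG00000107984 ran from -0.01 (without Mock replicate 2) to 0.18 (without Mock replicate 1), far from the threshold in either case, and the cause was not tested. Same-numbered arrays' deviations correlated at 0.24, 0.27 and 0.09 for Y55F and WT and at 0.09, 0.05 and -0.29 for S112A and Mock. The numbers were not taken to pair the samples, but these values do not exclude a pairing of Y55F with WT arrays. With the replicate block 703 lower and 828 higher IDs separated, 391 differed between Y55F and WT and 366 between S112A and Mock. Of the 4 IDs' calls it changed that of ENSG00000148516 for Y55F minus WT, to an adjusted p of 0.0412 in limma. With 3 arrays in each group, precision is limited by their number.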
